A study of Bos indicus x Bos taurus with 17 samples.

Results

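The genes for 5 fatty acid binding proteins (FABP1, FABP3, FABP4, FABP5 and FABP7) and for the 5 perilipins (PLIN1 to PLIN5) were examined in fetal bovine liver and skeletal muscle. They were taken by gene symbol, each symbol matched 1 row, and they make up 10 of the 21048 genes in the deposited tables. The counts came from F1 fetuses of Bos taurus indicus (Nelore) and Bos taurus taurus (Holstein) at about day 105 of gestation. Control-AI fetuses (n = 2, numbers 2 and 4) were conceived by artificial insemination. ART-Normal fetuses (n = 4, numbers 1 to 4) were produced in vitro by assisted reproduction, and the study describes that group as similar in weight to the controls. Each fetus gave 1 liver and 1 muscle library, and the muscle is not named further. The labels include ART-Normal 4, which is absent from the fetuses and weights that the study lists. Each comparison of the conception groups was therefore also made without ART-Normal 4.

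Fatty acid binding proteins are small cytosolic proteins that hold long-chain fatty acids and other lipids in an inner cavity and carry them to membranes, enzymes and nuclear receptors. Perilipins coat the surface of lipid droplets and govern the access of lipases to the stored triglyceride. Both families are known as targets of the peroxisome proliferator-activated receptors (PPARs), and several members are named after the tissue in which they were first found: FABP1 is the liver form, FABP3 the heart and muscle form, FABP4 the adipocyte form, FABP5 the epidermal form and FABP7 the brain form.

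The libraries were poly(A)-selected and strand-specific, and held 18454088 to 43339598 counts in liver and 12433300 to 23578362 in muscle. The 8 hepatocyte markers summed to 24663 to 301386 CPM (counts scaled to a common library total) in liver against 24.6 to 327 in muscle, and the 8 skeletal muscle markers to 14885 to 24884 CPM in muscle against 6.92 to 32.8 in liver, so each tissue held its own markers. Control-AI 2 stood apart in both tissues. On the first principal component, with 51.0% of the variance in liver and 53.6% in muscle, it lay at -46.2 and -46.0, whereas the other libraries lay at 2.56 or above in liver and at 4.78 or above in muscle. It also held the highest hepatocyte marker sum in both tissues, 301386 CPM in liver against 24663 to 45239 in the other 5 livers, mainly through AHSG, ALB and SERPINA1. In muscle that sum was 327 CPM in Control-AI 2 against 24.6 to 57.8 in the others. The skeletal muscle markers in liver were also highest in Control-AI 2, at 32.8 CPM against 6.92 to 9.53 in the others. Results are therefore given with and without Control-AI 2.

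The members lie on 7 chromosomes of the ARS-UCD1.2 assembly. FABP1 (gene 327700) is at chr11:47917547-47923246, FABP3 (281758) at chr2:122287099-122294639 and FABP7 (777787) at chr9:28476061-28479847. FABP5 (281760) at chr14:44488912-44494877 and FABP4 (281759) at chr14:44676559-44680947 share a chromosome, on opposite strands and 182 kb apart. PLIN1 (520598) is at chr21:21078033-21091966 and PLIN2 (280981) at chr8:25117110-25131174. PLIN3 (767984) at chr7:19291317-19311906, PLIN5 (531199) at chr7:19600495-19611773 and PLIN4 (107131384) at chr7:19614567-19628222 lie on 1 strand of chromosome 7, with 289 kb between PLIN3 and PLIN5 and 2.79 kb between PLIN5 and PLIN4. The intervals are the whole spans of the genes, introns included. PLIN1 overlaps PEX11A on the same strand by 92 bp, and PLIN4 overlaps HDGFL2 on the opposite strand by 23 bp. How the authors' counting used strand is not given in the sources used here, so reads in those 2 short stretches could belong to either gene.

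The first question was how the members divide between the tissues. FABP1 and PLIN5 were higher in the liver of every fetus, and FABP3, FABP4, FABP5, FABP7, PLIN1, PLIN2, PLIN3 and PLIN4 were higher in the muscle of every fetus. Some of these margins were small, down to 1.05-fold for PLIN3 and 1.07-fold for PLIN1 within a fetus. In ART-Normal 3 the direction of FABP4 rested on 1 muscle count against 0 in liver. Among the 7 members that passed the level filter (5 CPM or more in each library of a group), edgeR's quasi-likelihood test across 12923 genes called 2 higher in liver and 4 higher in muscle at a Benjamini-Hochberg adjusted p of 0.05 or lower. Over all genes tested the test called 40.6% higher in liver and 40.7% higher in muscle, so a call in either direction was common. FABP1 and PLIN5 passed the level filter only through liver, and FABP3 and FABP7 only through muscle. Such a filter favours a call in the same direction, so these 4 calls are not read as support on their own. FABP4, PLIN1 and PLIN4 passed in neither tissue and are described by their levels and by the same test without the filter. All levels below are CPM on 1 TMM scale over the 12 libraries. The exceptions are ratios with an exact interval and the floor for 0 counts, which use summed counts over library totals without TMM. Where each library's value is given, ART-Normal 1 to 4 and Control-AI 2 and 4 follow in that order. In these bulk samples, fewer cells of a type and less RNA per cell cannot be told apart.

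**Figure D1:**
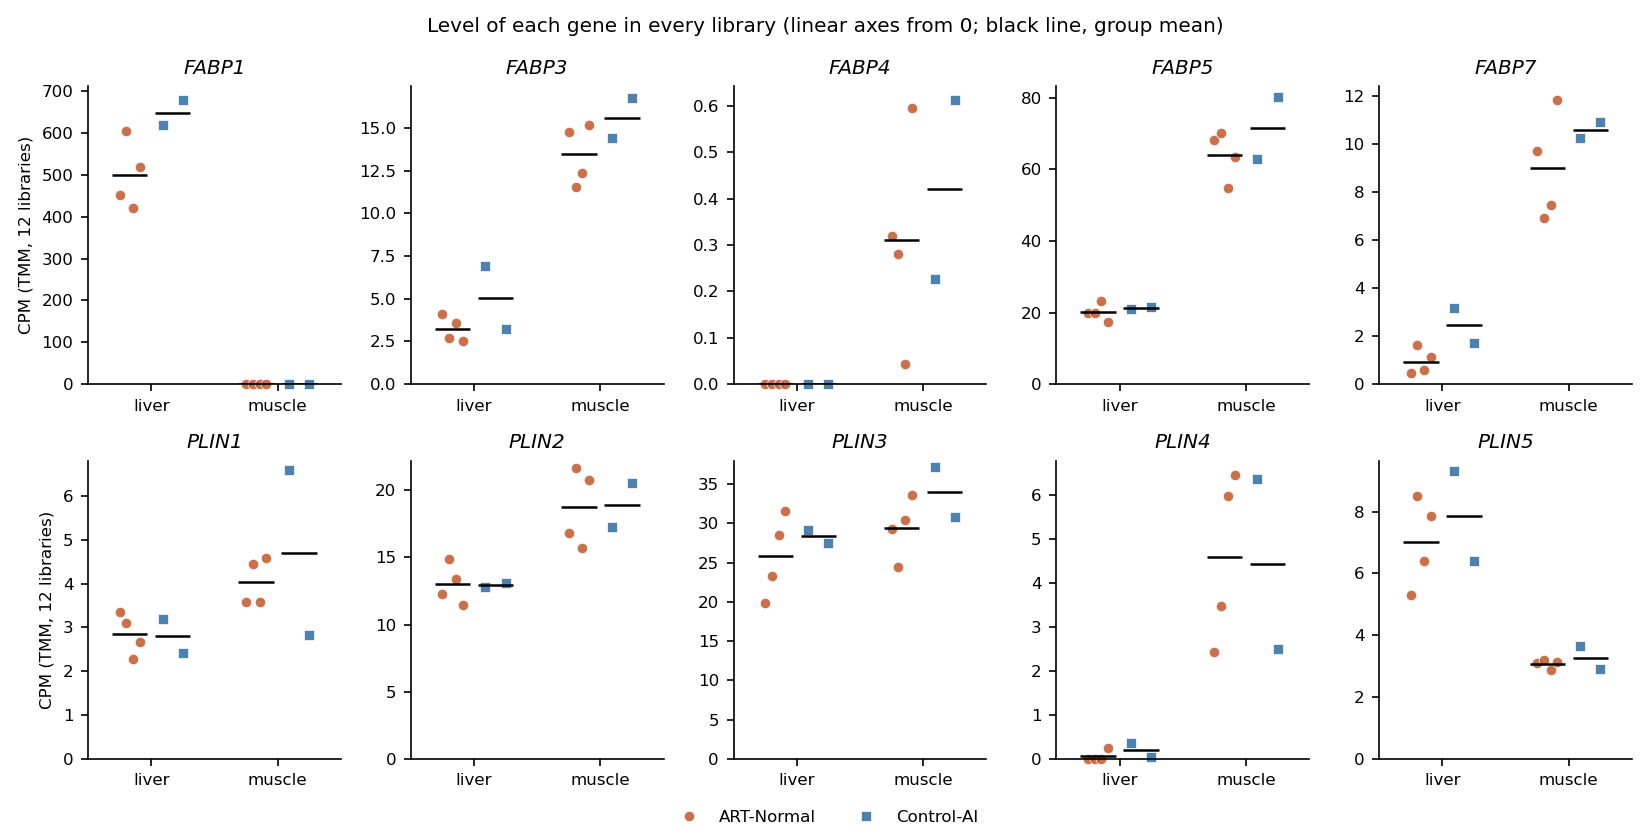
Level of each of the 10 genes in CPM (y axes, linear from 0 and scaled for each gene) in liver and muscle, with 1 point per library, circles for ART-Normal (n = 4), squares for Control-AI (n = 2) and a black line at the group mean. FABP1 lies between 421 and 679 CPM in liver and near 0 in muscle, and PLIN5 is the other gene whose liver points all lie above its muscle points.

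FABP1, which serves the uptake and use of fatty acids in hepatocytes, had the largest fitted difference between the tissues. In liver its level was 453, 605, 421 and 518 CPM in the ART-Normal fetuses against 619.2 and 679 CPM in the controls, a mean of 549 CPM ± 101 (SD, n = 6). In muscle it had 0, 0, 1 and 0 counts in ART-Normal 1 to 4 and 7 and 1 counts in Control-AI 2 and 4. The 6 livers thus held 86720 counts and the 6 muscles 9. The ratio of the summed counts, scaled by library totals, was 7012, with an exact 95% interval of 3694 to 15335 that covers counting error only. The fitted log2 fold change was 12.76 (SE 0.39, adjusted p = 1.53e-12 by edgeR's quasi-likelihood test). Without Control-AI 2, which held 7 of the 9 muscle counts, the fitted value was 14.50.

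Hepatocyte markers were counted in every muscle library at low levels. The sum of the 8 reached between 0.0674% and 0.160% of their liver level in the muscle of the same fetus, and HNF4A alone was at 0, in the muscle of ART-Normal 1. The markers were not at a common share: the median in muscle was 1.17% of that in liver for APOA1 and 0.0208% for FGB. FABP1 in muscle was at 0.0856% of its liver level in Control-AI 2, where the markers were at 0.108%, and at 0.0104% or lower in the other 5 fetuses. The source of the muscle counts of FABP1 was not tested.

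PLIN5, which tethers lipid droplets to mitochondria and restrains lipolysis in oxidative tissues, was the only perilipin that was higher in liver. Its liver level was 5.30, 8.50, 6.40 and 7.87 CPM in the ART-Normal fetuses against 9.32 and 6.40 CPM in the controls, and its muscle level stayed between 2.89 and 3.64 CPM. No muscle library reached the lowest liver library. The difference within a fetus ran from 1.71-fold to 2.65-fold, and the fitted log2 fold change was 1.22 (SE 0.17, adjusted p = 1.35e-05).

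FABP5, a broadly expressed member, had the highest level per kb of gene span in muscle. Its muscle level was 68.1, 70.2, 54.7 and 63.4 CPM in the ART-Normal fetuses against 63.0 and 80.2 CPM in the controls. In liver it lay between 17.5 and 23.3 CPM, so the tissues were separated by a wide margin. The log2 fold change of liver over muscle was -1.70 (SE 0.10, adjusted p = 1.03e-09), and FABP5 was 2.35-fold to 3.71-fold higher in muscle within a fetus.

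FABP3, the form that carries fatty acids in striated muscle, was at 14.7, 11.5, 12.4 and 15.2 CPM in ART-Normal muscle against 14.4 and 16.7 CPM in control muscle. In liver it was at 4.09, 2.68, 3.59 and 2.53 CPM in the ART-Normal fetuses against 6.94 and 3.20 CPM in the controls. Control-AI 2 was the highest liver library and still lay below every muscle library. The log2 fold change of liver over muscle was -1.93 (SE 0.21, adjusted p = 7.73e-07).

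FABP7 is known as a protein of radial glia and other glial cells, and it too was higher in muscle. Its muscle level was 9.71, 6.91, 7.44 and 11.8 CPM in the ART-Normal fetuses against 10.2 and 10.9 CPM in the controls. Its liver level was 0.46, 1.61, 0.57 and 1.11 CPM in the ART-Normal fetuses against 3.18 and 1.73 CPM in the controls. The fitted log2 fold change of liver over muscle was -2.83 (SE 0.32, adjusted p = 1.64e-06), and the fold within a fetus had a wide range, from 3.22 to 20.9 higher in muscle.

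Markers of Schwann cells and glia were also present in muscle. SOX10, the glial lineage factor, was at 3.38 to 6.74 CPM in muscle and at 0 to 0.157 CPM in liver. Of the 7 markers, 5 were tested, 4 of these were higher in muscle (3 of them past the filter only there) and MBP was higher in liver. The whole list summed to 272 to 453 CPM in muscle and 312 to 357 CPM in liver, with CDH19 at 0 in all 6 livers. The part of these cells in the FABP7 level was not tested.

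FABP4, the adipocyte form that is also made by capillary endothelium and macrophages, was barely counted. It had 0 counts in all 6 livers and 44 counts in the 6 muscles, where its level was 0.319, 0.281, 0.0438 and 0.597 CPM in the ART-Normal fetuses against 0.227 and 0.613 CPM in the controls. Its muscle level from summed counts was 20.2 times a floor of 3 counts over the 6 livers, which is 0.0185 CPM. The counting error of the 44 muscle counts is not part of that value. FABP4 and its chromosome neighbour FABP5 were thus both higher in muscle but at levels far apart.

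Of the 7 adipocyte markers, 3 were below 1 CPM in every library of both tissues. ADIPOQ, which encodes adiponectin, was at 0 to 0.298 CPM in muscle and 0 to 0.173 CPM in liver, and LEP, which encodes leptin, was at 0.0408 to 0.831 CPM in muscle and at 0 in liver. UCP1, the uncoupler of brown fat, was at 0.0995 to 0.303 CPM in muscle and 0 to 0.285 CPM in liver. The 7 markers summed to 14.8 to 23.1 CPM in muscle and 38.3 to 62.0 CPM in liver, there mainly through CIDEA, CIDEC and LIPE, which also belong to the lipid droplet list below. In muscle, LIPE at 6.43 to 7.42, THRSP at 3.54 to 8.60 and CIDEA at 2.98 to 7.06 CPM made up most of the sum, and THRSP was called higher there (log2 fold change of liver over muscle -1.36, adjusted p = 0.00887), past the filter only through muscle. The 8 endothelial markers summed to 769 to 862 CPM in muscle and 504 to 557 CPM in liver, with 6 higher in muscle and VWF higher in liver. The 8 macrophage markers, all higher in liver, summed to 96.7 to 129 CPM in muscle and 466 to 633 CPM in liver. No cell type's part in the FABP4 level was tested.

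PLIN4, a perilipin of adipocytes and striated muscle with a long repeat that binds droplets, was counted mostly in muscle. There it was at 2.43, 3.48, 5.99 and 6.46 CPM in the ART-Normal fetuses against 6.36 and 2.49 CPM in the controls. In liver it had 13 counts in all, with 0 in ART-Normal 1 to 3, and Control-AI 2 was the highest library at 0.361 CPM. The ratio of muscle to liver was 56.6 (exact 95% interval 32.8 to 107, counting error only), and without the filter the log2 fold change of liver over muscle was -5.60 (SE 0.75, adjusted p = 7.29e-06). PLIN4 and PLIN5, next to each other on the same strand, therefore had opposite directions.

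PLIN1, PLIN2 and PLIN3 were closer between the tissues. PLIN1, the perilipin of the large adipocyte droplet, lay between 2.28 and 3.34 CPM in liver and between 2.82 and 6.59 CPM in muscle, where Control-AI 2 was the highest and Control-AI 4 the lowest. The ranges overlapped, and without the filter the log2 fold change of liver over muscle was -0.59 (SE 0.24, adjusted p = 0.0381).

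PLIN2 coats droplets in most cells and is degraded when it is not on one. It was at 12.3, 14.8, 13.4 and 11.5 CPM in ART-Normal livers against 12.8 and 13.1 CPM in control livers. In muscle it was at 16.8, 21.7, 15.7 and 20.8 CPM in the ART-Normal fetuses against 17.3 and 20.5 CPM in the controls, so every muscle library lay above every liver library. The difference was small, from 1.17-fold to 1.81-fold within a fetus. The log2 fold change of liver over muscle was -0.53 (SE 0.12, adjusted p = 6.84e-04 by edgeR's quasi-likelihood test).

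PLIN3, which moves from the cytosol to young droplets, was at 19.8 to 31.5 CPM in liver and 24.4 to 37.1 CPM in muscle, and these ranges overlapped. The log2 fold change of liver over muscle was -0.21 (SE 0.12, adjusted p = 0.124) and did not pass the test, although each of the 6 fetuses had the higher level in muscle. With the fetus as a replicate block it was -0.22 with an adjusted p of 0.0399, and with library size alone as the scale it was -0.35 with an adjusted p of 0.0329. Library size alone moved the median log2 fold change of all genes from 0.01 to -0.13.

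**Figure D2:**
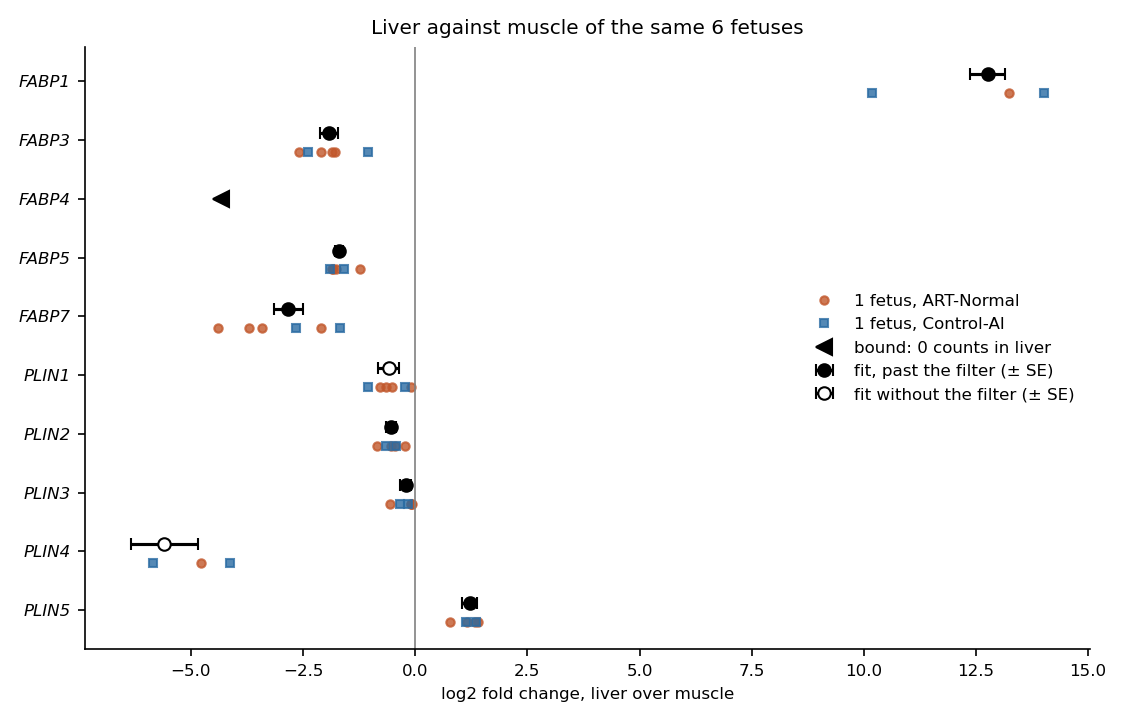
Log2 fold change of liver over muscle (x axis) for each gene, with black circles for the fit (filled where the gene passed the level filter, open for the fit without it, bars ± SE) and small coloured symbols for single fetuses with counts above 0 in both tissues. FABP1 and PLIN5 lie to the right of 0, the other 8 to the left, and the triangle for FABP4 marks a bound because it had 0 counts in liver.

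Leaving out Control-AI 2 gave the same counts, 2 members higher in liver and 4 higher in muscle of 7 tested. The values were -2.15 for FABP3, -1.74 for FABP5, -3.09 for FABP7, -0.57 for PLIN2 and 1.16 for PLIN5. PLIN3 was at -0.20 with an adjusted p of 0.179.

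Levels of different genes were compared as CPM per kb of gene span, since no transcript lengths were used here and a span includes introns. The order therefore depends on the spans. In plain CPM, FABP3 lay above FABP7 in muscle (means 14.2 and 9.50) and PLIN3 above FABP5 in liver (means 26.7 and 20.5). In liver, FABP1 was at 96.3 ± 17.8 (SD, n = 6) CPM per kb of span and FABP5, the next, at 3.44 ± 0.327, with no overlap between libraries. PLIN3 at 1.29, PLIN2 at 0.923, PLIN5 at 0.647, FABP3 at 0.509, FABP7 at 0.382 and PLIN1 at 0.203 followed on the same scale, and each overlapped with the next as far as PLIN1. PLIN4 at 0.00783 and FABP4 at 0 came last, below PLIN1 in every library. In muscle, FABP5 led at 11.2 ± 1.43 CPM per kb of span without overlap with FABP7 at 2.51 ± 0.514. FABP7, FABP3 at 1.88, PLIN3 at 1.502 and PLIN2 at 1.34 each overlapped with the next, and so did PLIN4 at 0.332, PLIN1 at 0.306 and PLIN5 at 0.279, a group that lay below PLIN2 and above FABP4.

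The makeup of the 2 families differed between the tissues on this scale. FABP1 took 94.2% to 96.4% of the summed level of the 5 FABP genes in each liver and at most 0.607% in muscle. FABP5 took 66.9% to 77.5% in muscle, with FABP7 at 12.02% to 19.6% and FABP3 at 10.1% to 12.8%. No single perilipin held such a place. PLIN3 had the largest median share of the perilipin level in liver, between 35.8% and 47.1% in single libraries, and in muscle, where the median was 41.6%, followed by PLIN2 with medians of 30.9% and 35.6%. PLIN5 had a median share of 20.1% in liver and 7.37% in muscle, and PLIN4 had 8.98% in muscle and 0.0526% in liver. These shares are descriptions of the libraries on the span scale, and in plain CPM the order of FABP7 and FABP3 in muscle was the reverse.

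The second question was whether conception by assisted reproduction went with another level of these genes. None of the 5 members tested in liver and none of the 5 tested in muscle passed the test between ART-Normal and Control-AI. The background was as low: by edgeR's quasi-likelihood test 0% of 11304 genes were called in liver and 0.00855% of 11695 in muscle, which is 1 gene. An unadjusted p under 0.05 was found for 948 and 1075 genes, and for 0 tested members in either tissue. The likelihood ratio test called 89 genes in liver and 120 in muscle and the Wald test of DESeq2 56 and 106, and no member was among them. An exact permutation test on a single gene could not go below p = 0.0667, since there are 15 ways to split 6 libraries into 4 and 2. The log2 fold changes below come from a TMM scaling within each tissue.

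FABP1 was the only tested member whose groups did not overlap in liver. The 4 ART-Normal livers lay between 421 and 605 CPM and both Control-AI livers above them, at 619.2 and 679 CPM. The gap between ART-Normal 2 and Control-AI 2 was small beside the range within ART-Normal. The log2 fold change (ART-Normal over Control-AI) was -0.39 (SE 0.18, unadjusted p = 0.0564, adjusted p = 0.589), so the difference did not pass the test. Non-overlap with ART-Normal lower was found for 9.16% of the genes tested in liver, with ART-Normal higher for 9.23%, and 1 of 5 members is not read as more than that. The value was -0.43 without Control-AI 2, -0.33 without Control-AI 4 and -0.18 with library size alone, a scale that moved the median of all genes in liver from 0.01 to 0.21.

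The summed hepatocyte markers and FABP1 had different orders across the livers. The markers summed to 36553, 24663, 38968 and 28102 CPM in ART-Normal 1 to 4 and to 301386 and 45239 CPM in Control-AI 2 and 4, with none of the 8 at 0. Both measures were thus higher in the controls, but ART-Normal 2 had the lowest marker sum and the highest FABP1 level of the ART-Normal livers. In Control-AI 2 the sum was 6.66 times that of Control-AI 4, while FABP1 was lower than in Control-AI 4. The ratio was 18.0 for AHSG, 7.26 for SERPINA1 and 5.73 for ALB, but between 0.632 (APOA1) and 1.80 (APOA2) for the other 5 markers, with HNF4A at 1.16. The part of the markers' cells in the FABP1 difference was not tested.

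**Figure D3:**
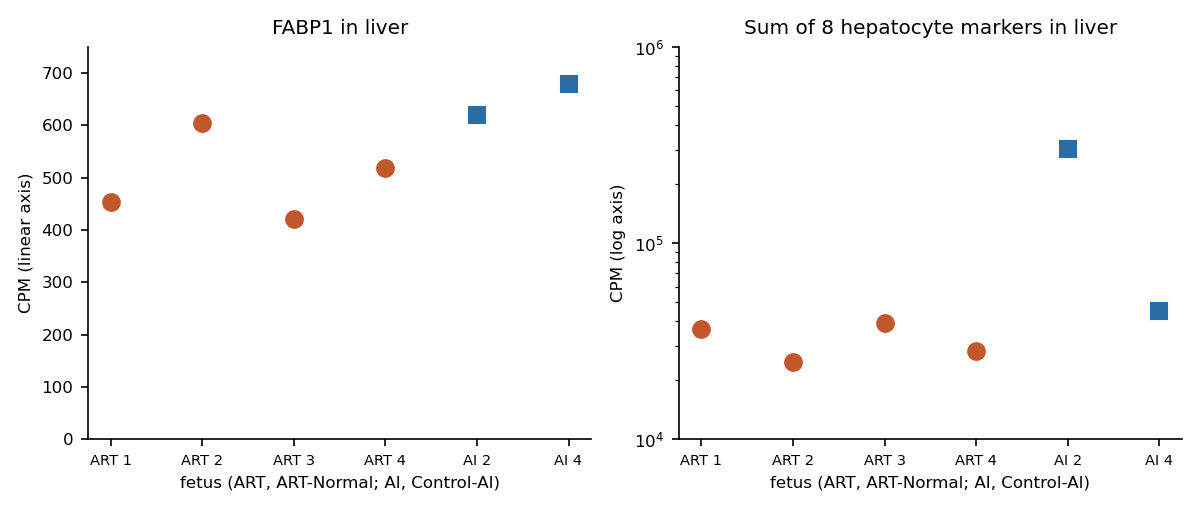
FABP1 (left, CPM on a linear axis from 0) and the sum of 8 hepatocyte markers (right, CPM on a log axis) in the liver of each fetus, circles for ART-Normal and squares for Control-AI. Control-AI 2 is at 619.2 CPM for FABP1, a little below Control-AI 4 at 679 CPM, and at 301386 CPM for the markers, far above the other 5 livers.

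The other members tested in liver had overlapping groups. The log2 fold change (ART-Normal over Control-AI) was -0.09 (SE 0.17) for FABP5, 0.00 (SE 0.19) for PLIN2, -0.14 (SE 0.20) for PLIN3 and -0.16 (SE 0.27) for PLIN5, with adjusted p-values from 0.816 to 0.998. Library size alone turned the sign for FABP5 (0.11), PLIN3 (0.07) and PLIN5 (0.08), each below the shift of all genes. PLIN5 was also at 0.15 without Control-AI 2, which was its highest liver library.

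FABP7 lay below the level filter in liver, but its groups did not overlap there. Among genes past the filter, 9.16% had such non-overlap with ART-Normal lower. The share among genes below the filter was not counted, so the non-overlap of FABP7 is not read as a result. The 4 ART-Normal livers were at 0.46 to 1.61 CPM, and Control-AI 4 at 1.73 and Control-AI 2 at 3.18 CPM lay above them. These levels rest on 129 counts in 4 libraries and 84 counts in 2. Without the filter the log2 fold change was -1.33 (SE 0.58, unadjusted p = 0.0414, adjusted p = 0.547), which did not pass the test. FABP3, also below the filter in liver, was at -0.63 (SE 0.38) with overlapping groups, and PLIN1 at 0.05 (SE 0.36).

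In muscle, the groups of the 5 tested members overlapped. Non-overlap was found for 7.22% of all genes tested with ART-Normal lower and for 8.76% with ART-Normal higher. The log2 fold change (ART-Normal over Control-AI) was -0.21 (SE 0.19) for FABP3, -0.15 (SE 0.15) for FABP5, -0.23 (SE 0.24) for FABP7, -0.01 (SE 0.19) for PLIN2 and -0.20 (SE 0.17) for PLIN3, with adjusted p-values from 0.777 to 0.994. All 5 values were negative by a small amount, and so they were without Control-AI 2, with a median of -0.28. Without Control-AI 4, FABP5 was at 0.04 and PLIN2 at 0.13. Without the filter, PLIN4 was at 0.09 (SE 0.45), PLIN1 at -0.18 (SE 0.36), PLIN5 at -0.06 (SE 0.32) and FABP4 at -0.48 (SE 0.94). FABP1, with 1 count in 4 ART-Normal muscles and 8 in the controls, was at -3.90 (SE 1.60, unadjusted p = 0.0314, adjusted p = 0.427).

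**Figure D4:**
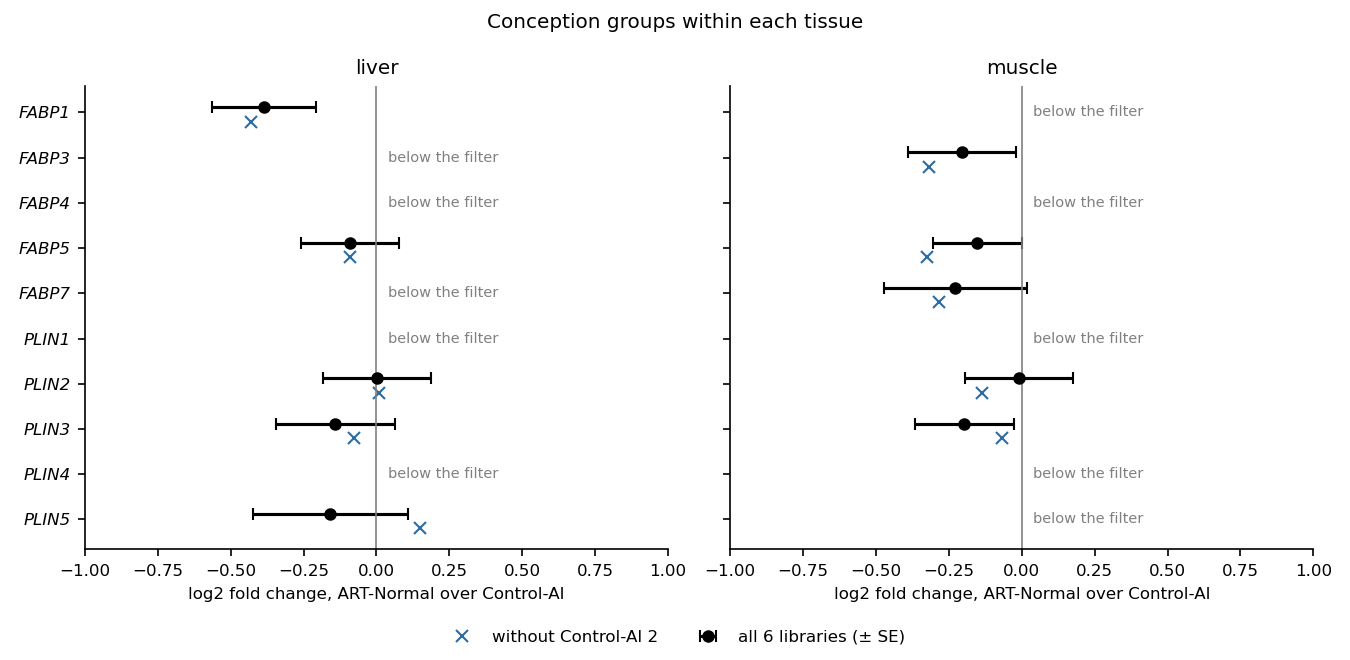
Log2 fold change (ART-Normal over Control-AI) (x axis) in liver (left) and muscle (right) for members that passed the level filter, as circles with bars of ± SE for all 6 libraries and as crosses without Control-AI 2. FABP1 in liver lies farthest from 0, at -0.39, and no member passed the test.

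The interaction of tissue and conception group was tested to see whether the groups differed in another way in liver than in muscle. It called 0 of 7 members and 0% of 12923 genes by edgeR's quasi-likelihood test, with 711 genes at an unadjusted p under 0.05, 98 called by the likelihood ratio test and 37 by the Wald test of DESeq2. FABP1 had the largest value among the members, 3.35 (SE 1.22, unadjusted p = 0.0171, adjusted p = 0.804), and FABP7 followed at -1.06 (SE 0.61, adjusted p = 0.932). The FABP1 value rests on 9 muscle counts, of which the controls held 8 and ART-Normal 1, a ratio of 18.3 in favour of the controls with an exact 95% interval of 2.45 to 810. It was 1.06 without Control-AI 2 and 4.66 with an adjusted p of 0.0485 without Control-AI 4. FABP3, FABP5, PLIN2, PLIN3 and PLIN5 had interaction values between -0.43 and 0.08.

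Relatives of the FABP genes and other genes of lipid handling were counted from lists drawn up with earlier results of these data known. A gene that passed the filter through 1 tissue alone was likely to be called higher there. The counts are therefore also given for genes that passed in both tissues. Of all genes tested, 40.6% were called higher in liver and 40.7% in muscle. Of 11 other intracellular lipid binding proteins, 4 were tested between the tissues, 2 of which passed in both. RBP5, a carrier of retinol that passed only through liver, was higher in liver, at 7.20 to 10.7 CPM against 0 to 0.0562 in muscle. CRABP1 and CRABP2, carriers of retinoic acid, were higher in muscle, with log2 fold changes of -1.19 (SE 0.24) and -0.91 (SE 0.22). Of these, CRABP1 passed only through muscle. The other FABP-type genes were at low levels: FABP9 was at 0 in all 12 libraries, FABP2 and FABP6 did not exceed 0.227 CPM, FABP12 did not exceed 0.481 CPM, and PMP2, the myelin form, was at 0 in liver and at 0.0398 to 2.05 CPM in muscle.

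Of 20 lipid droplet and lipolysis genes, 17 were tested, 13 were higher in liver and 4 in muscle, with a median log2 fold change of 1.60 beside 0.01 over all genes. Of the 13 that passed in both tissues, 9 were higher in liver and 4 in muscle, and CIDEC and DGAT2 were among the 4 that passed through liver alone. CIDEC, a droplet fusion factor, was at 7.96 to 16.5 CPM in liver and 0.0438 to 0.151 in muscle (log2 fold change 7.39, SE 0.29). DGAT2, which makes triglyceride, was at 80.8 to 116 CPM against 0.717 to 1.34 (6.64, SE 0.17). FITM1, which partitions triglyceride into droplets in muscle, was higher in muscle (-2.76, SE 0.15), and so was LPIN1, a phosphatidate phosphatase (-1.41, SE 0.13).

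Among genes of fatty acid uptake and activation, 10 of 14 were higher in liver and 4 in muscle, with a median of 2.01, but only 6 passed in both tissues, 4 higher in liver and 2 in muscle. SLC27A2, a fatty acid transporter and acyl-CoA synthetase (6.73, SE 0.59), and ACSL6, an acyl-CoA synthetase (6.01, SE 0.14), had the largest rises in liver. Both passed the filter only through liver. GPIHBP1, which anchors lipoprotein lipase to capillaries (-2.92, SE 0.14), and SLC27A1, a transporter of muscle and fat (-2.25, SE 0.11), were higher in muscle. GPIHBP1 passed only through muscle, and SLC27A1 passed in both tissues. Of 15 genes of fatty acid oxidation and its control, 14 were higher in liver, with a median of 1.61, and 13 of the 14 that passed in both tissues were. ACADS, which oxidizes short-chain acyl-CoA, had a log2 fold change of 2.89 (SE 0.12). The exception was CPT1B, the muscle form of carnitine palmitoyltransferase, at -1.11 (SE 0.18).

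The last list held transcription regulators of lipid genes. Of 11 listed, 10 were tested, with 7 higher in liver, 2 higher in muscle and a median of 0.57. Of the 7 that passed in both tissues, 6 were higher in liver and 0 in muscle. CEBPA (3.78, SE 0.31), which passed only through liver, and PPARA, the PPAR of fatty acid oxidation (2.102, SE 0.07), were higher in liver. PPARA was at 236 to 262 CPM there against 50.2 to 62.1 in muscle. RXRG, a partner of the PPARs (-7.43, SE 0.24), and the coactivator PPARGC1B (-4.87, SE 0.20) were higher in muscle, and both passed the filter only through muscle. PPARG, the adipocyte PPAR, did not pass the filter, at 3.61 to 7.29 CPM in liver and 1.82 to 9.45 CPM in muscle. Without Control-AI 2 the counts higher in liver and muscle were 2 and 2 for the binding proteins, 14 and 4 for the droplet genes, 10 and 4 for uptake and activation, 14 and 1 for oxidation, and 7 and 2 for the regulators.

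**Figure D5:**
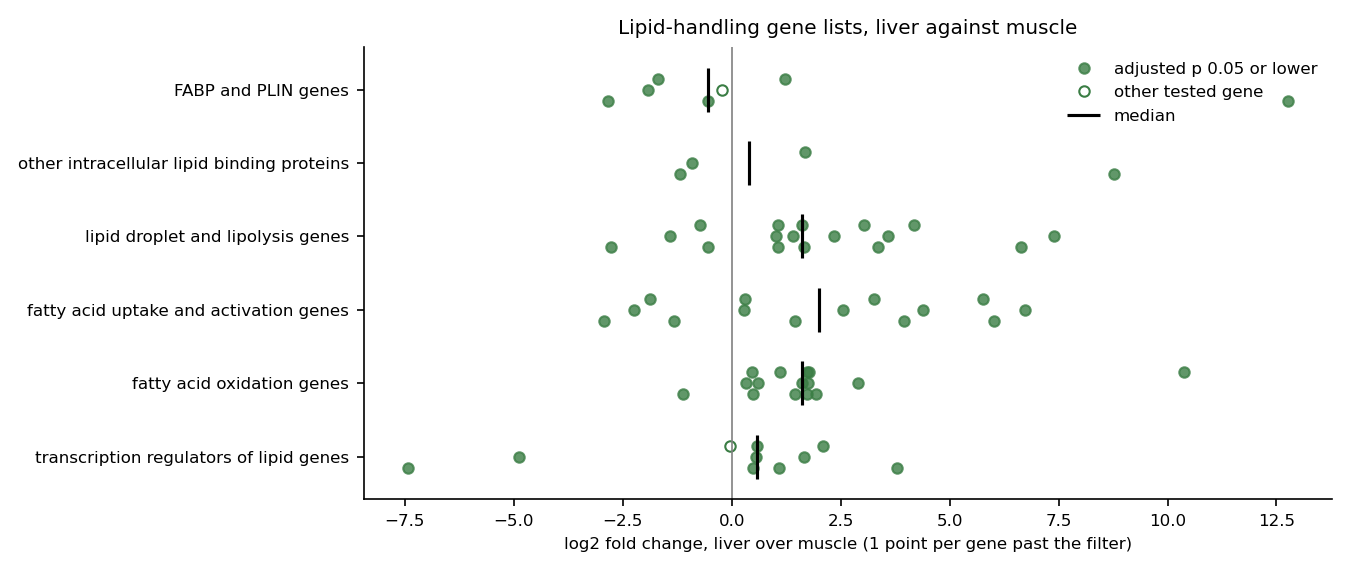
Log2 fold change of liver over muscle (x axis) for the FABP and PLIN genes and 5 lists of related genes, with 1 point per gene past the level filter, filled where the adjusted p was 0.05 or lower, and a black line at the list's median. The median of the 7 tested FABP and PLIN genes is -0.53, and those of the 5 other lists lie between 0.39 and 2.01. Genes that passed the filter through a single tissue are included.

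Between ART-Normal and Control-AI, no gene of these 5 lists passed the test in either tissue. For the lists reported here, the gene with the smallest p is given as a value. In liver, LPL, the lipase of lipoprotein triglyceride, was at 1.10 (SE 0.26, adjusted p = 0.435), PNPLA3 at 1.15 (SE 0.45, adjusted p = 0.561) and the coactivator PPARGC1A at 0.48 (SE 0.14, adjusted p = 0.503). In muscle, PPARGC1A was at 0.67 (SE 0.19, adjusted p = 0.343), ACSL3 at -0.50 (SE 0.19, adjusted p = 0.463), PDK4 at -0.43 (SE 0.23, adjusted p = 0.617), CRABP1 at 0.38 (SE 0.19, adjusted p = 0.594) and MGLL at 0.36 (SE 0.20, adjusted p = 0.644). The interaction called none of the 5 lists' genes either, the smallest adjusted p being 0.694 for SLC27A2 (3.83, SE 1.13). SLC27A2 passed the filter only through liver and was near 0 in muscle, at 0 to 1.14 CPM with a median of 0.0657.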

How the data were processed

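The authors deposited raw counts of RNA-seq reads per gene, not normalized, in 1 table per tissue on ARS-UCD1.2. The submitters' processing notes name FastQC 0.11.7, HISAT2 2.1.0, featureCounts and edgeR 3.24.3. Listed gene lengths equal whole spans. Columns were matched by fetal identifier to 12 libraries, and 14 other count columns (7 per tissue) and the kidney libraries were not used here. The authors' tables of comparisons, with log2 fold change, log2 CPM, likelihood ratio, p-value and FDR, were not used.

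The members and lists were chosen with earlier results of these data known. All 10 members were named, and from each list, per comparison, the called genes that rose most (up to 2) and fell most (up to 2), or the gene with the smallest p. A few further genes (PPARG, FABP2, FABP6, FABP9, FABP12, PMP2 and single markers) were named after their values were seen. Some genes that this rule names are not reported here.

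Counts were tested in R 4.3.3 with edgeR 4.0.16 (TMM, quasi-likelihood, 5 CPM or more in each library of a group, Benjamini-Hochberg threshold 0.05): ART-Normal against Control-AI per tissue, liver against muscle with conception as covariate, and their interaction. The test was tried on simulated data. Standard errors follow from the log2 fold change and F. Alternatives were RLE, library size alone, the likelihood ratio test, DESeq2 1.42.0, no filter, ART-Normal 1 to 3, a replicate block, and leaving out each fetus. Liver and muscle of a fetus are paired: across genes, their departures from the group mean had r = 0.21, 0.04, 0.08 and 0.32 in ART-Normal 1 to 4 and 0.36 in the controls, whose deviations mirror each other. Same-group libraries differed by more than sampling noise (mean chi-square per gene 18.3 or above over 14 pairs, where noise gives about 1). Library totals ran from 12433300 to 43339598 counts, and with TMM scaling within each tissue 1 count was worth 0.0212 to 0.0800 CPM. Exact intervals, their ratios and floors use summed counts over library totals without TMM, and the intervals cover counting error only. Tables and plots used Python 3.11.15, pandas 2.3.3, SciPy 1.17.1 and Matplotlib 3.10.9. No sequences are shown.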

Additional observations from a re-analysis of the deposited data

Results flagged for a closer look

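In ART-Normal muscle, 1 of 4 libraries stood apart for FABP1: ART-Normal 3 was at 0.0438 CPM, which is 1 count, and the others at 0. In ART-Normal liver, ART-Normal 4 stood apart for PLIN4 at 0.236 CPM, which is 7 counts, with the others at 0. Both were found by the gap to the nearest library relative to the range of the group, over 19 groups of 4. Chance gives such a gap in about 1 of 20 groups of measured values, but where 3 libraries are at 0 any count in the fourth gives it, so neither is read as more than a few counts.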

How the results depend on the processing

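Across 12 distinct alternatives per comparison (ART-Normal 1 to 3 is the fit without ART-Normal 4), 82 of 84 values of tested members for liver over muscle kept their direction and their side of the threshold, and PLIN3 passed it in the other 2, as given above. So did 51 of 60 values for ART-Normal over Control-AI in liver, 55 of 60 in muscle and 75 of 84 for the interaction. None of the members passed in the conception comparisons. The cause of the changes in sign was not tested. In liver, PLIN2 was at -0.00405 with RLE and -0.00338 with DESeq2 and PLIN5 at 0.079 with the replicate block, and FABP5, PLIN3 and PLIN5 were at 0.11, 0.069 and 0.083 with library size alone. In muscle, PLIN2 was at 0.17 with the replicate block. The PLIN5 interaction was at 0.17 with library size alone. Leaving out each fetus in turn gave, in liver, -0.069 to 0.052 for PLIN2 and -0.42 to 0.15 for PLIN5, in muscle, -0.33 to 0.043 for FABP5 and -0.14 to 0.13 for PLIN2, and for the interaction, -1.03 to 0.35 for FABP3, -0.10 to 0.25 for FABP5, -0.10 to 0.16 for PLIN2 and -0.18 to 0.084 for PLIN5.

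Genes called in liver numbered 6 with library size alone, 89 with the likelihood ratio test, 56 with DESeq2, 6 with the replicate block, 2 with ART-Normal 1 to 3 and 0 to 830 leaving out each fetus in turn. In muscle they numbered 120, 106, 90 and 0 with the likelihood ratio test, DESeq2, the replicate block and ART-Normal 1 to 3, and 0 to 1327 leaving out each fetus. For the interaction they numbered 98 and 37 with the likelihood ratio test and DESeq2, and 0 to 232 leaving out each fetus, with 0 to 1 members, FABP1 without Control-AI 4. The 830, 1327 and 232 genes were called without Control-AI 4, when Control-AI 2 was the lone control, assumed to vary like the other libraries. Within a tissue, ART-Normal and Control-AI fetuses share only a number, so that block marks no known pairing. Among the tested members, the paired block by fetus changed no call but that of PLIN3. With 2 controls, small differences could not be detected, and FABP4, PLIN1 and PLIN4 had too few counts for the filtered test.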
